A study of Mus musculus with 2 samples.

Results

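Complement components and receptors were described as 9 genes, taken by symbol from the 32285 genes listed in the files: *C1qa*, *C1qb*, *C1qc*, *C3*, *C4b*, *Cfb*, *Cfp*, *C3ar1* and *C5ar1*. Their expression was read in mononuclear cells of injured skeletal muscle, by single-cell RNA sequencing with 10x Genomics 3′ chemistry. The mice were wild-type (WT) C57BL/6J males, 14 weeks old, whose right quadriceps had been injected with 100 µL of 1.2% BaCl2, a salt that kills myofibers and starts regeneration. The injured quadriceps was taken at day 1 or at day 3 after injection, and cells of 5 mice were pooled into 1 library per day. Both groups were thus injured WT muscle, labelled as differing in time, and no uninjured muscle was analysed here. Muscle was digested with collagenase and dispase, enriched on a density gradient, sorted on scatter and frozen, so myofibers were absent by preparation. With 1 library per day there was no replicate and no test, and every difference below is one between 2 libraries.

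Complement is a cascade of plasma proteins that tags damaged cells and microbes for removal and calls in leukocytes. C1q, built of A, B and C chains, recognises its targets and starts the classical pathway, in which C4 is cleaved on the way to C3. In the alternative pathway factor B (*Cfb*) forms the enzyme that cleaves C3, and properdin (*Cfp*) stabilises it. Cleavage of C3 and C5 releases small peptides that act on the G protein-coupled receptors C3aR (*C3ar1*) and C5aR1 (*C5ar1*) of myeloid cells. Most plasma complement is made by the liver, whereas C1q and properdin are made largely by myeloid cells. In injured muscle, dying fibers are cleared by monocytes and macrophages that stand beside fibro-adipogenic progenitors (FAPs), the mesenchymal cells of muscle.

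Cells were the 7367 barcodes of day 1 and the 6640 of day 3 with the most unique molecular identifiers (UMIs, each counting 1 captured transcript), less those with under 1000 UMIs, under 200 genes or over 7.5% mitochondrial UMIs. This left 6735 cells at day 1 and 4627 at day 3, 11362 in all, with medians of 9389 and 14548 UMIs. The mitochondrial limit removed 7.02% of barcodes at day 1 and 30.3% at day 3. The libraries listed 737280 and 6794880 possible barcodes, so the chemistry may differ between the days and cannot be told apart from time. Only 77142 barcodes were on both lists, so the 0 barcodes of kept cells found in both are no check of the libraries. Levels are CPM, the UMIs of a gene per 1000000 UMIs of all genes, taken from sums over the cells of each group. The 95% confidence intervals (CI; exact Poisson for CPM, Clopper-Pearson for shares, exact binomial for ratios) cover counting error only, not variation between mice.

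Clusters were named from lists of marker genes, and a name ends in -like. Monocyte/macrophage-like cells numbered 2450 at day 1 and 2207 at day 3, with 7 of 7 markers of the list at 10 CPM or more on both days. Classical monocyte-like cells numbered 1079 and 627, neutrophil-like cells 2050 and 240, dendritic cell-like cells 399 and 437, and fibroblast/FAP-like cells 643 and 825. Satellite cell/myoblast-like cells were described at day 3 alone, with 201 cells, since day 1 held 6. Neutrophil-like cells were shallow, with medians of 2156 and 1604 UMIs, against 11769 and 16275 in monocyte/macrophage-like cells. In monocyte/macrophage-like and fibroblast/FAP-like cells the days fell largely into different clusters, which are named below by their leading gene. Of the monocyte/macrophage-like cells, day 1 held 1256 in a *Ccl24*-led cluster (with *Serpinb2* and *Il1a*) and 1127 in a *Cd163*-led cluster (with *Retnla* and *Ppbp*), and day 3 held 1457 in a *Fcrls*-led cluster (with *Cx3cr1* and *Clec12a*) and 736 in a *Gpnmb*-led cluster (with *Htr2b* and *Syngr1*). The *Fcrls*-led cluster was the single monocyte/macrophage-like cluster with 50 or more cells on both days, 63 of them at day 1. Free RNA of the suspension, bounded by markers of other types, made up at most 0.942% and 0.874% of the UMIs of monocyte/macrophage-like cells at day 1 and day 3.

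Most of the 9 genes had their highest level in the same cell type on both days, the exceptions being *Cfb* and *Cfp*. The C1q chains and *C3ar1* had their highest CPM in monocyte/macrophage-like cells in both libraries, which made 4 of the 9 members on each day. At a clustering resolution of 0.4 no member was highest in these cells at day 1, and with each cell named by its marker score 2 were at day 3. Over all alternatives the number ran from 0 to 6 at day 1 and from 2 to 4 at day 3. *C5ar1* was highest in neutrophil-like cells on both days. *C3* and *C4b* were highest in fibroblast/FAP-like cells on both days, although *C3* at day 1 (278 CPM) was within counting error of neutrophil-like cells (278 CPM). *Cfb* was highest in fibroblast/FAP-like cells at day 1, and at day 3 its level in classical monocyte-like cells (95.4 CPM) was within counting error of that in fibroblast/FAP-like cells (89.1 CPM). *Cfp* was spread over dendritic cell-like, monocyte/macrophage-like and classical monocyte-like cells, with the first 2 overlapping in their intervals at day 1.

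**Figure D1:**
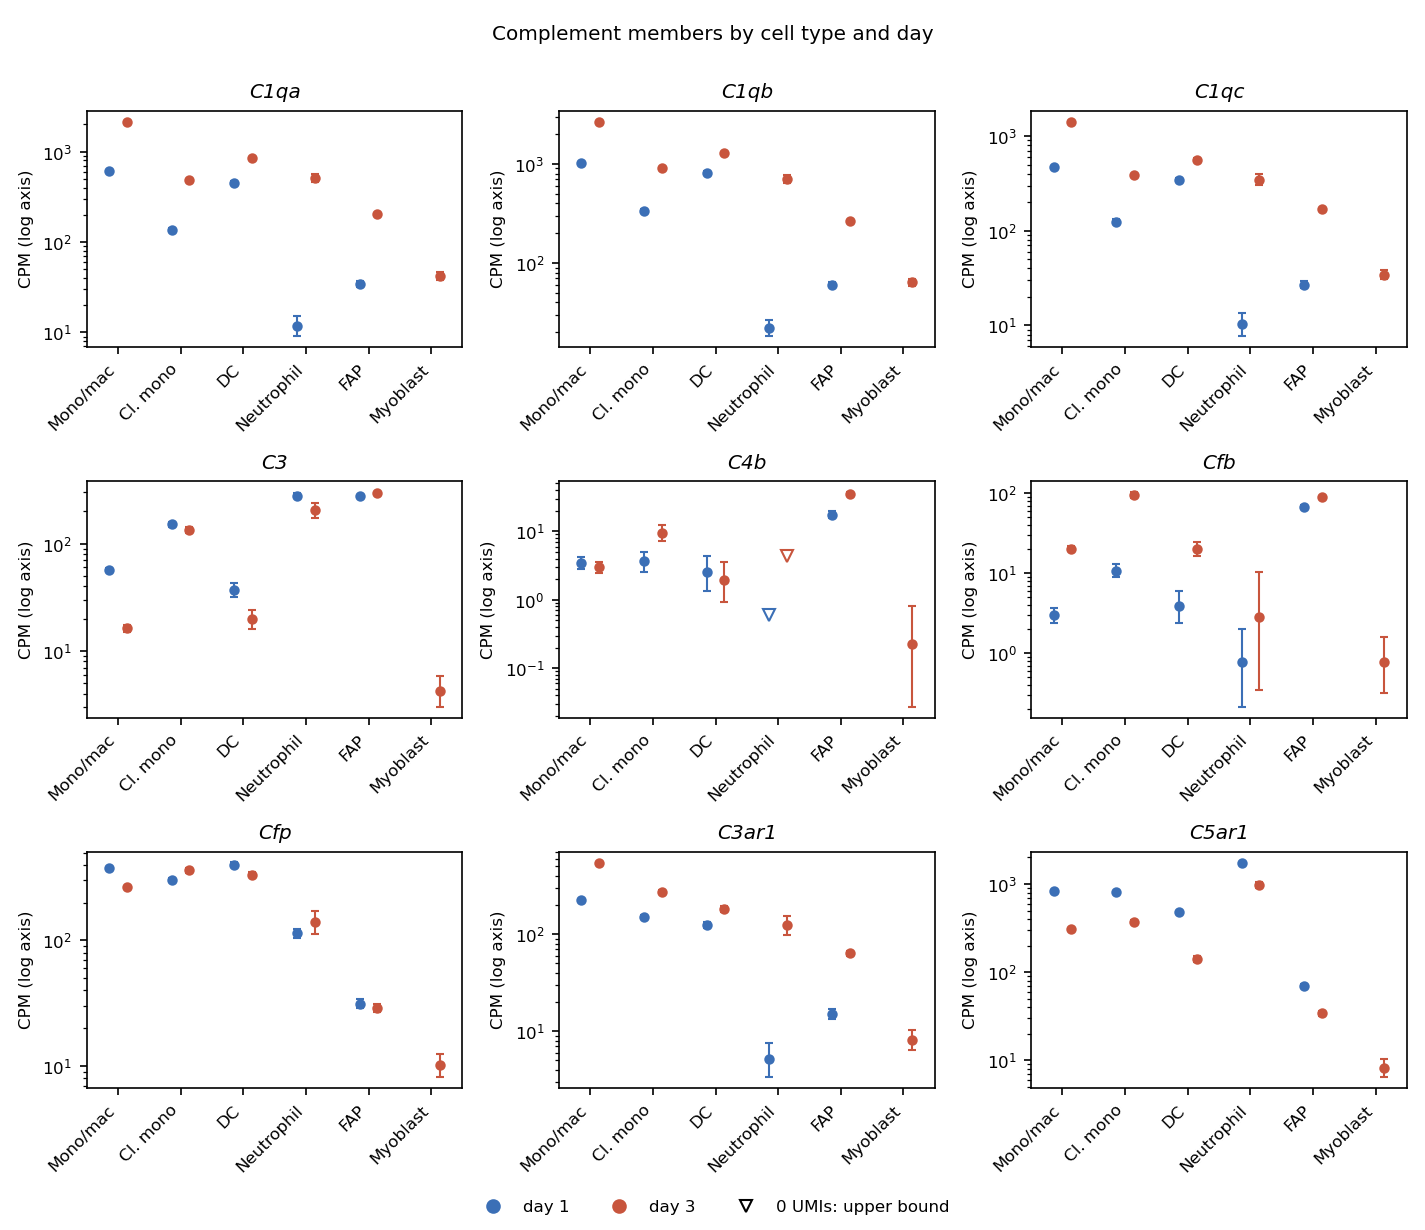
Level of each of the 9 genes in CPM (log axis) by cell type, with day 1 in blue and day 3 in red, 1 library per day; bars are 95% exact Poisson intervals and open triangles mark 0 UMIs at the level that 3 counts would give. The C1q chains and *C3ar1* stood highest in monocyte/macrophage-like cells on both days and *C4b* in fibroblast/FAP-like cells, where *C3* at day 1 was level with neutrophil-like cells.

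Counted as shares of all UMIs of a gene in kept cells, monocyte/macrophage-like cells held 78.7% of the C1q UMIs at day 1 and 85.3% at day 3. They held 43.0% and 46.2% of the UMIs of all genes. Fibroblast/FAP-like cells held 51.4% of *C3* at day 1 and 81.1% at day 3, against 26.4% and 28.9% of all genes. The rest of *C3* at day 1 was divided between monocyte/macrophage-like (17.1%), classical monocyte-like (15.4%) and neutrophil-like cells (13.9%). For *Cfb* the share in fibroblast/FAP-like cells was 84.4% at day 1 and 59.9% at day 3, and the share in monocyte/macrophage-like cells was 6.20% and 21.7%. For *C5ar1* the share in neutrophil-like cells went from 18.6% to 4.07%, beside 2050 and 240 such cells. These shares mix the level per cell with the number and depth of the cells.

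**Figure D2:**
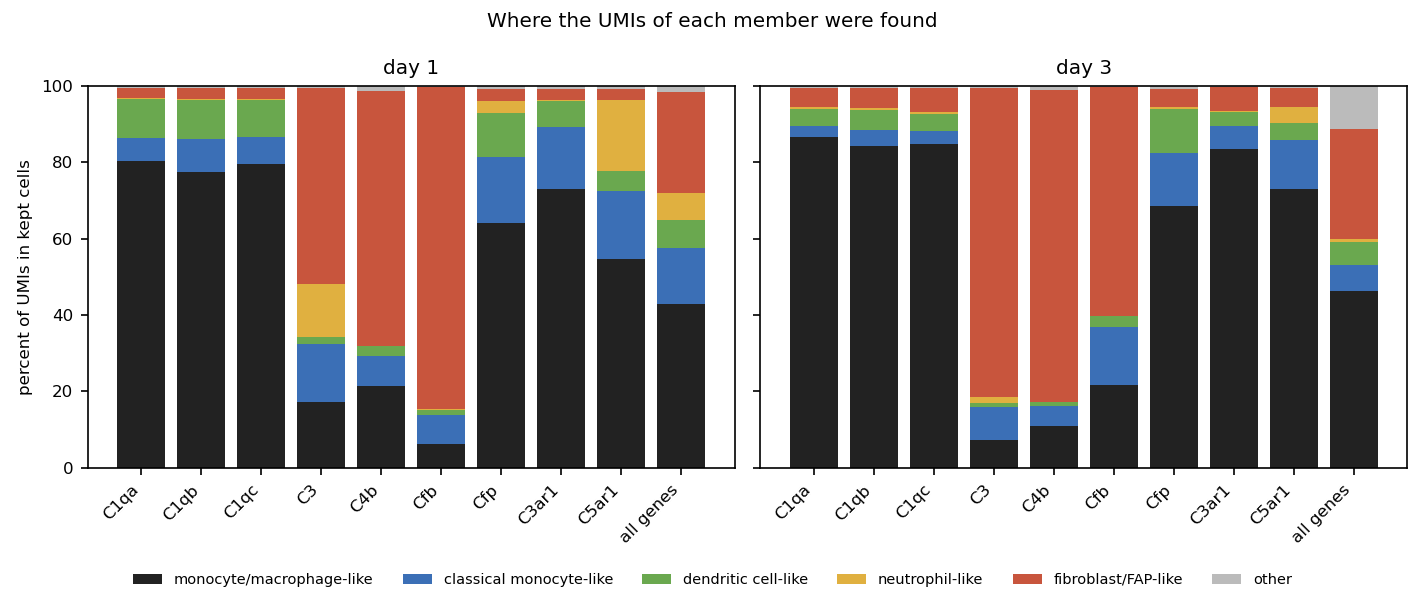
Percent of the UMIs of each gene, and of all genes together, found in each cell type, among kept cells of day 1 (left) and day 3 (right). Most UMIs of the C1q chains were in monocyte/macrophage-like cells on both days, and fibroblast/FAP-like cells held 51.4% of *C3* at day 1 and 81.1% at day 3.

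The question of how these genes differed between day 1 and day 3 was addressed within each cell type, with a log2 ratio of day 3 over day 1 and a call at a 2-fold difference. In monocyte/macrophage-like cells 5 of the 9 members were called higher at day 3, the 3 C1q chains, *Cfb* and *C3ar1*. Among the 7704 genes with at least 500 UMIs there, 19.6% were called higher. Called lower were 2 of the 9, *C3* and *C5ar1*, beside 5.53% of genes. The median log2 ratio was 1.26 over the 9 members and 0.34 over all genes tested. *C4b*, with 105 and 116 UMIs, was the member under the 500-UMI limit. The days held different clusters of these cells, and within the *Fcrls*-led cluster 1 member (*Cfb*) was called higher and 1 (*C3*) lower.

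In classical monocyte-like cells 5 of 9 were called higher, the C1q chains, *C4b* and *Cfb*, and 1 lower, *C5ar1*. *C4b*, with 38 and 55 UMIs, was under the 500-UMI limit and so not among the 3730 genes tested, of which the shares called were 7.27% and 3.27%. In dendritic cell-like cells *Cfb* was called higher and *C5ar1* lower, against 6.38% and 5.06% of 2710 genes tested, which did not include *Cfb* (20 and 103 UMIs). In fibroblast/FAP-like cells 5 of 9 were called higher, the C1q chains, *C4b* and *C3ar1*, and *C5ar1* lower, against 16.1% and 8.03% of 7672 genes. In neutrophil-like cells the C1q chains and *C3ar1* had ratios over 2-fold with intervals above 0, and none of the 9 was called lower. The shares there were 17.2% and 18.7% of 1403 genes tested, which included *C1qb*, *C3*, *Cfp* and *C5ar1* but not *C1qa*, *C1qc* or *C3ar1*. The values of the fibroblast/FAP-like and neutrophil-like cells are read below beside the macrophage markers found in the same cells.

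**Figure D3:**
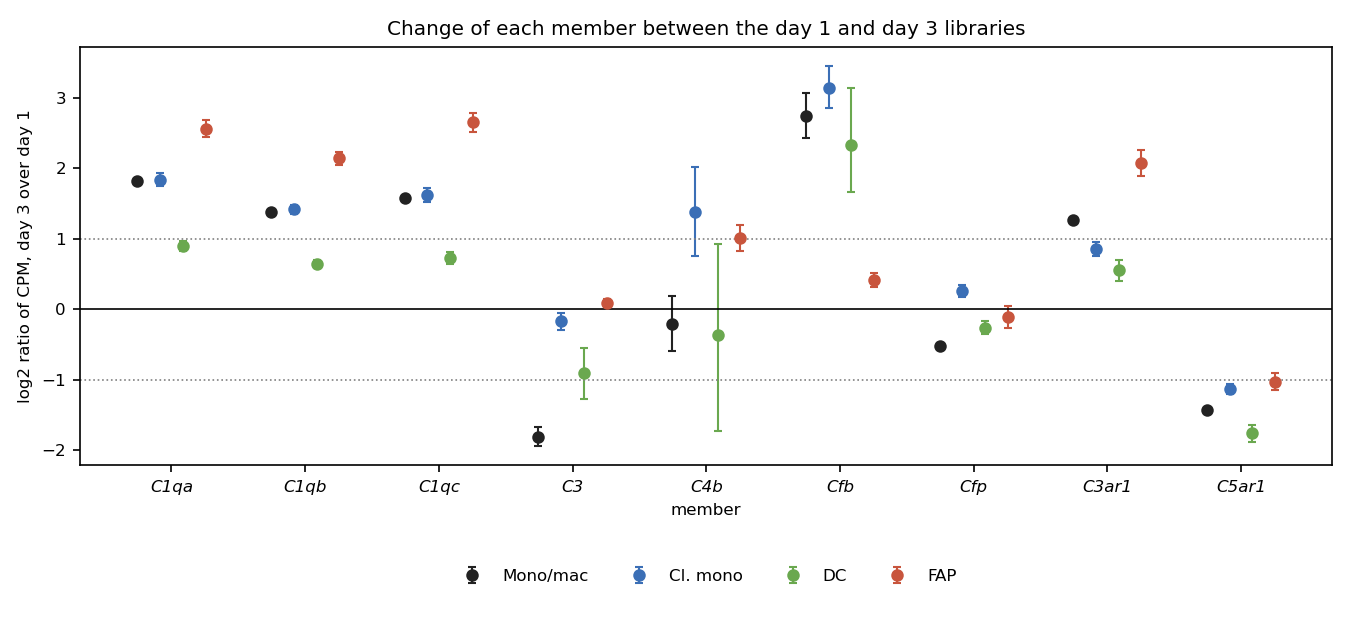
Log2 ratio of CPM, day 3 over day 1, of the 9 genes in monocyte/macrophage-like (black), classical monocyte-like (blue), dendritic cell-like (green) and fibroblast/FAP-like cells (red), with 95% binomial intervals for counting error; dotted lines mark a 2-fold difference. *C5ar1* was lower at day 3 in all 4 types, and *C3* had a ratio of -1.81 in monocyte/macrophage-like cells, against 0.09 for fibroblast/FAP-like cells, whose ratio was 1.07 with 200 genes per 1000 UMIs required.

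The C1q chains, the recognition unit of the classical pathway, were highest in monocyte/macrophage-like cells and higher there at day 3 than at day 1. In monocyte/macrophage-like cells *C1qa* (ENSMUSG00000036887) was at 604 CPM (95% CI 595 to 613) at day 1 and 2143 CPM (95% CI 2129 to 2158) at day 3. *C1qb* (ENSMUSG00000036905) was at 1028 CPM (95% CI 1016 to 1039) and 2672 CPM (95% CI 2656 to 2689). *C1qc* (ENSMUSG00000036896) was at 478 CPM (95% CI 469.9 to 485) and 1422 CPM (95% CI 1410.0 to 1434). All 3 chains were higher at day 3, with log2 ratios of 1.83, 1.38 and 1.57. Summed over the chains, the level was 2109 CPM at day 1 and 6237 CPM at day 3, a log2 ratio of 1.56 (95% CI 1.55 to 1.58), or 2.96-fold. The median gene of these cells was itself 0.34 higher on the log2 scale, and relative to it the summed chains were 1.22 higher. Levels on this scale compare transcript ends, so no gene length was applied.

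The chains kept a similar proportion to each other. Of the C1q UMIs of monocyte/macrophage-like cells, *C1qb* gave 48.7% at day 1 and 42.8% at day 3, *C1qa* 28.6% and 34.4%, and *C1qc* 22.6% and 22.8%. The order *C1qb*, *C1qa*, *C1qc* was the same in all 11 groups of day and cell type. Across those 11 groups the log2 levels of the chains had Pearson correlations of 0.99 to 0.999. The groups share 2 libraries, so these values describe the pattern and carry no test. The 3 genes lie side by side on chromosome 4 in GRCm38.p6 (mm10), *C1qb* at chr4:136880126-136886200, *C1qc* at chr4:136889801-136892936 and *C1qa* at chr4:136895916-136898844, within 18719 bases, all protein-coding. The gaps between neighbours are 3600 and 2979 bases.

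The 250 bases before the start site of a RefSeq promoter entry are shown for *C1qb* and *C1qc*, since they differed between the days in the same direction, and for *C3*, which differed in the other direction in the same cells. RefSeq promoter entries on GRCm38.p6 matched *C1qb*, *C1qc*, *C3*, *Cfp*, *C3ar1* and *C5ar1*. Capitals mark the motifs searched on both strands, the ETS core AGGAAG (or its reverse complement) in the C1q promoters and the C/EBP motif TTGCGNAA in *C3*. The sequences run 5′ to 3′ towards the gene. An entry's start site need not be the outer end of the gene as listed above, and the *C1qc* window reaches a few bases into the listed gene.
C1qb chr4:136886201-136886450, minus strand: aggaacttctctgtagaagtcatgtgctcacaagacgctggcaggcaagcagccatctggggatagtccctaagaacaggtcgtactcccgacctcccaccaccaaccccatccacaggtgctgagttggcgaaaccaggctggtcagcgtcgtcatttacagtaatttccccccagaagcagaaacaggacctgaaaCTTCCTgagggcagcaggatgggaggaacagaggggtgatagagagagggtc
C1qc chr4:136892915-136893164, minus strand: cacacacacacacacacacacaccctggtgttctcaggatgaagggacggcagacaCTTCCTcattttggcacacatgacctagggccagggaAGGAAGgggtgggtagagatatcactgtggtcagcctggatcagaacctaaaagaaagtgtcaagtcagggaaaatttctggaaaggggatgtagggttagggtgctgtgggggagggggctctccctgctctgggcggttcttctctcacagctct
C3 chr17:57228137-57228386, minus strand: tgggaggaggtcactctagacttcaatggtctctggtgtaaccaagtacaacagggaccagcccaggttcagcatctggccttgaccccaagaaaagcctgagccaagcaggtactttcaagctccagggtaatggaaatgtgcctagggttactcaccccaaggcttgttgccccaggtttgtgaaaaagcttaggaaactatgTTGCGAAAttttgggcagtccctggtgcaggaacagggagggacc
The ETS core was found once in the *C1qb* window, 52 bases before the start site, and at 2 places in that of *C1qc*, 194 and 157 bases before it. It was found at 3 places in the window of *C5ar1*, which lies mostly inside the listed gene, and in 29.5% of 32851 promoter windows of this length. The C/EBP motif was found in the *C3* window alone among the 6, 45 bases before the start site, and in 0.670% of windows. The MAF half-site TGCTGAC (3.81% of windows), the STAT motif TTCNNNGAA (7.02%) and the IRF motif (GAAA repeated after any 2 bases, 2.98%) were in none of the 6 windows. A match describes letters in the window and is neither a binding site nor a cause.

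Per cell, at the depth sequenced, most cells had either no chain or all of them. At day 1, 53.0% of monocyte/macrophage-like cells had no C1q UMI and 33.0% had UMIs of all 3 chains. At day 3 these shares were 10.6% and 77.5%. Cells with 1 or 2 chains were the minority on both days, 7.80% and 6.20% at day 1 and 6.12% and 5.85% at day 3. After thinning each cell to 2000 UMIs to set a common depth, which left 2428 and 2195 of these cells, 40.03% of cells at day 1 and 82.2% at day 3 had a C1q UMI, and 21.5% and 61.0% had all 3 chains, so that cells with 1 or 2 chains made up more of the cells than without thinning. The median monocyte/macrophage-like cell had 0 C1q UMIs at day 1 and 5452 CPM at day 3, while the 90th percentile cell had 6587 and 12747 CPM. The 10% of cells with the most C1q held 55.4% of its UMIs at day 1 and 30.9% at day 3.

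As a background, *C1qb* had a UMI in 43.8% of satellite cell/myoblast-like cells at day 3, which had a median of 44087 UMIs. After thinning, that share was 7.46%, against 77.8% of monocyte/macrophage-like cells (unthinned 85.9%). At day 1 it was 2.29% of neutrophil-like cells (thinned 1.97%), against 44.3% of monocyte/macrophage-like cells (thinned 37.2%). The monocyte/macrophage-like shares were above this background on both days, at thinned depth as well.

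The monocyte/macrophage-like clusters also differed in C1q within each day. At day 1 the summed chains were at 1335 CPM in the *Ccl24*-led cluster, 2919.7 CPM in the *Cd163*-led cluster and 4031 CPM in the 63 cells of the *Fcrls*-led cluster. At day 3 they were at 5535 CPM in the *Fcrls*-led cluster and 7246 CPM in the *Gpnmb*-led cluster. Cells with all 3 chains made up 24.8%, 41.7% and 39.7% of the 3 clusters at day 1, and 71.9% and 88.6% of the 2 at day 3. Within the *Fcrls*-led cluster the difference between the days was 0.46 (95% CI 0.40 to 0.52) on the log2 scale, smaller than over all monocyte/macrophage-like cells and under 2-fold. The C1q genes and the markers were left out of the genes used for clustering.

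**Figure D4:**
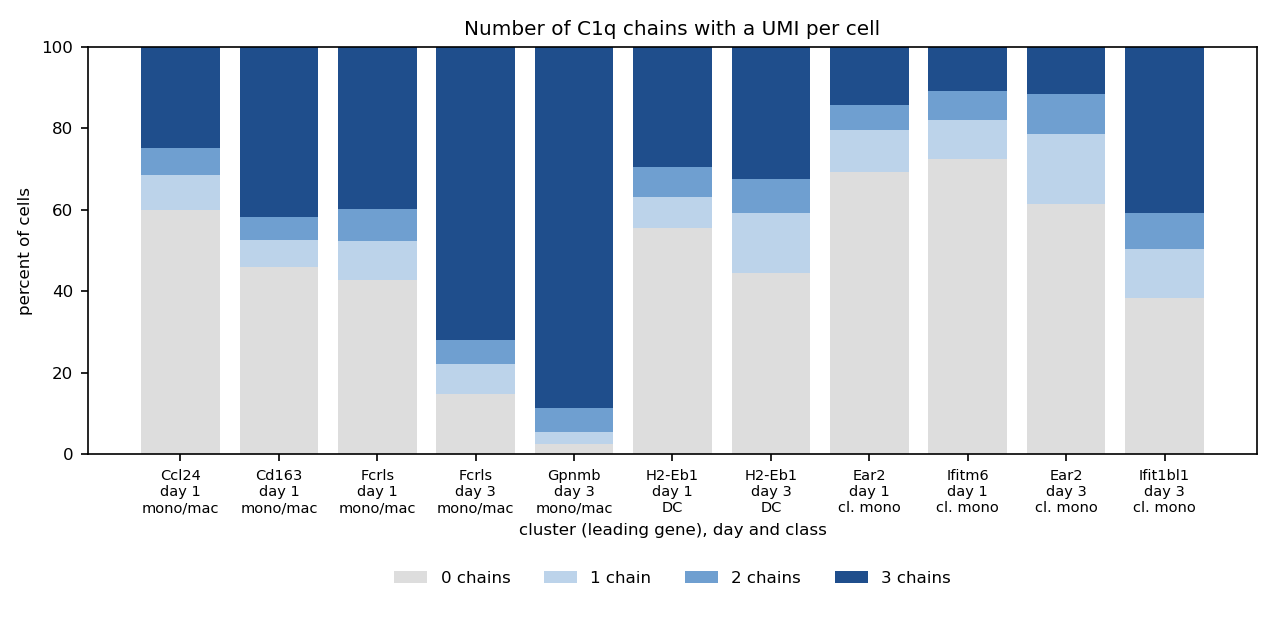
Percent of cells with a UMI of 0, 1, 2 or 3 C1q chains in clusters of monocyte/macrophage-like (mono/mac), dendritic cell-like (DC) and classical monocyte-like (cl. mono) cells with at least 50 cells on the day, named by leading gene. Cells with all 3 chains ranged from 10.8% in the *Ifitm6*-led cluster of day 1 to 88.6% in the *Gpnmb*-led cluster of day 3; depths differ and are not thinned here.

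Classical monocyte-like cells had less C1q than monocyte/macrophage-like cells on both days. Their summed chains were at 598 CPM at day 1 and 1771 CPM at day 3, a log2 ratio of 1.57 (95% CI 1.52 to 1.61). The clusters that made up these cells differed between the days. The *Ear2*-led cluster, with 127 cells at day 1 and 348 at day 3, had 922 and 641 CPM, lower at day 3 with a log2 ratio of -0.52 (95% CI -0.64 to -0.41). The *Ifitm6*-led cluster, which held 918 of the day 1 cells, had 539.9 CPM. A cluster led by the interferon-induced genes *Ifit1bl1*, *Ifit2* and *Ifi213*, with 238 cells at day 3, had 3403 CPM and all 3 chains in 40.8% of its cells. All 5 markers of the classical monocyte list were raised in it, but none was among its leading genes. The monocyte/macrophage list scored second in it, close to the first. The study named a subcluster with high interferon-responsive genes as macrophages. The name of this cluster is thus uncertain, and the day 3 level of classical monocyte-like cells rests partly on it.

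Dendritic cell-like cells, a cluster led by the class II genes *H2-Eb1*, *H2-Aa* and *H2-Ab1*, had 1613 CPM of summed C1q at day 1 and 2687 CPM at day 3 (log2 ratio 0.74, 95% CI 0.70 to 0.78). Of these cells 81.5% and 64.5% had a UMI of at least 3 of the 7 monocyte/macrophage markers, and they held 99.9% and 99.4% of the C1q UMIs. In the rest the summed chains were at 11.1 and 60.2 CPM. The name thus covers cells with and without macrophage markers, and nearly all C1q UMIs were in the former.

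*C3* (ENSMUSG00000024164, chr17:57203967-57228136), the protein on which all pathways meet, was lower at day 3 in monocyte/macrophage-like cells, while in fibroblast/FAP-like cells its ratio depended on which barcodes were kept. In monocyte/macrophage-like cells it was at 56.9 CPM (95% CI 54.3 to 59.7) at day 1 and 16.3 CPM (95% CI 15.03 to 17.6) at day 3, 3.50-fold lower with a log2 ratio of -1.81 (95% CI -1.94 to -1.67). In fibroblast/FAP-like cells it was at 278 CPM (95% CI 271 to 286) and 296 CPM (95% CI 289 to 303), a log2 ratio of 0.09 (95% CI 0.04 to 0.14), and -0.06 relative to the median gene. With at least 200 genes per 1000 UMIs required of a barcode, that ratio was 1.07. Such a limit asks for more genes in deeper barcodes, and the fibroblast/FAP-like cells had medians of 27858 and 26159 UMIs. The part of depth in that value was not tested. The 2 cell types did not overlap on either day, and the fibroblast/FAP-like level was the higher one. Cells with a *C3* UMI made up 37.7% and 17.5% of monocyte/macrophage-like cells (thinned 10.5% and 3.74%) and 67.2% and 76.2% of fibroblast/FAP-like cells (thinned 29.8% and 35.8%). In satellite cell/myoblast-like cells at day 3 the share was 5.47% (thinned 0.498%). Free RNA could supply at most 9.26% of the monocyte/macrophage-like level at day 3 and 0.98% of the fibroblast/FAP-like level.

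Among the other myeloid cells, *C3* was at 151 and 134 CPM in classical monocyte-like cells and at 278 and 204 CPM in neutrophil-like cells. Their log2 ratios, -0.17 and -0.44, were closer to 0 than that of monocyte/macrophage-like cells. Within the *Ear2*-led monocyte cluster *C3* was at 171 and 166 CPM, a log2 ratio of -0.05 (95% CI -0.29 to 0.21). Within the *Fcrls*-led cluster it was at 62.3 and 22.5 CPM (log2 ratio -1.49, 95% CI -1.97 to -0.92). The *Ccl24*-led cluster of day 1 had 67.3 CPM and the *Gpnmb*-led cluster of day 3 had 7.45 CPM, the lowest of the monocyte/macrophage-like clusters.

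*C4b* (ENSMUSG00000073418, chr17:34728139-34743902), the classical pathway component cleaved by activated C1, was low outside fibroblast/FAP-like cells. There it was at 17.5 CPM (95% CI 15.7 to 19.5) at day 1 and 35.3 CPM (95% CI 33.0 to 37.7) at day 3, a log2 ratio of 1.01 (95% CI 0.83 to 1.199). In monocyte/macrophage-like cells it was at 3.43 and 2.98 CPM, a ratio whose interval spanned 0 (log2 ratio -0.20, 95% CI -0.60 to 0.19). Classical monocyte-like cells had 3.66 and 9.56 CPM, from 38 and 55 UMIs. In neutrophil-like cells 0 UMIs were counted on both days, which allows up to 0.592 and 4.32 CPM. *C4b* has a near-identical neighbour, *C4a*, to which reads could be split, and *C4a* had 7 and 25 UMIs in all kept cells, against 491 and 1051 of *C4b*. Reads that match both genes were not measured here, so the *C4b* level is uncertain.

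*Cfb* (ENSMUSG00000090231, chr17:34856374-34862514), the protease of the alternative pathway, was the member with the largest ratio in monocyte/macrophage-like cells. It was at 3.01 CPM (95% CI 2.43 to 3.69) at day 1 and 20.2 CPM (95% CI 18.8 to 21.6) at day 3, a log2 ratio of 2.74 (95% CI 2.43 to 3.07), from 92 and 785 UMIs. In classical monocyte-like cells it was at 10.8 CPM (95% CI 8.87 to 13.0) and 95.4 CPM (95% CI 87.6 to 104), a log2 ratio of 3.14 (95% CI 2.85 to 3.45). Most of the day 3 level there lay in the *Ifit1bl1*-led cluster, with 199 CPM, against 24.6 CPM in the *Ear2*-led cluster. The name of the *Ifit1bl1*-led cluster is uncertain, as given above. Within the *Ear2*-led cluster the ratio was 0.73 (95% CI -0.05 to 1.67), an interval that spanned 0. Fibroblast/FAP-like cells had 66.8 and 89.1 CPM (log2 ratio 0.42, 95% CI 0.31 to 0.52), and *Cfb* had a UMI in 40.3% and 59.4% of them (thinned 9.05% and 19.1%). Neutrophil-like and satellite cell/myoblast-like cells had 2 to 7 UMIs each.

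*Cfp* (ENSMUSG00000001128, chrX:20925454-20931555), which encodes properdin, was present throughout the mononuclear myeloid cells and differed by less than 2-fold between the days in each type. In monocyte/macrophage-like cells it was at 379 CPM (95% CI 372 to 386) at day 1 and 264 CPM (95% CI 259 to 269) at day 3, a log2 ratio of -0.52 (95% CI -0.56 to -0.48). In classical monocyte-like cells it was at 301 and 361 CPM (log2 ratio 0.26, 95% CI 0.18 to 0.34), and in dendritic cell-like cells at 399.9 and 334 CPM (log2 ratio -0.26, 95% CI -0.35 to -0.17). The directions differed between the monocyte classes, and none of the ratios reached 2-fold. Within the *Fcrls*-led cluster it was at 341 and 333 CPM (log2 ratio -0.04, 95% CI -0.24 to 0.18), while the *Gpnmb*-led cluster had 164 CPM. A UMI of *Cfp* was found in 87.3% and 86.4% of monocyte/macrophage-like cells (thinned 47.2% and 37.3%). In satellite cell/myoblast-like cells at day 3 it was found in 18.9% (thinned 2.49%).

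The receptors of the peptides C3a and C5a differed between the days in opposite directions in the same cells. *C3ar1* (ENSMUSG00000040552, chr6:122847140-122856157) was at 227 CPM (95% CI 221 to 232) at day 1 and 544 CPM (95% CI 537 to 551) at day 3 in monocyte/macrophage-like cells, a log2 ratio of 1.26 (95% CI 1.22 to 1.30). *C5ar1* (ENSMUSG00000049130, chr7:16246743-16259540) was at 841 CPM (95% CI 830.5 to 851) and 312 CPM (95% CI 306 to 317), 2.70-fold lower with a log2 ratio of -1.43 (95% CI -1.46 to -1.40). *C5ar1* thus stood above *C3ar1* in transcript ends at day 1 and below it at day 3. In cells thinned to 2000 UMIs, *C3ar1* was found in 34.3% and 61.2% (unthinned 84.6% and 96.6%) and *C5ar1* in 76.6% and 43.6% (unthinned 98.5% and 88.0%). Satellite cell/myoblast-like cells at day 3 had 1.49% and 1.49% after thinning. Both receptors were found together in 26.5% of thinned monocyte/macrophage-like cells at day 1 and 25.6% at day 3, and *C3ar1* without *C5ar1* in 7.70% and 32.4%.

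The same directions were seen in the other mononuclear myeloid types. *C5ar1* was at 811 and 371 CPM in classical monocyte-like cells (log2 ratio -1.13, 95% CI -1.199 to -1.06) and at 479 and 142 CPM in dendritic cell-like cells (log2 ratio -1.76, 95% CI -1.88 to -1.64). *C3ar1* was at 149.7 and 272 CPM (log2 ratio 0.86, 95% CI 0.76 to 0.96) and at 125 and 183 CPM (log2 ratio 0.55, 95% CI 0.41 to 0.70), under 2-fold in both. Dendritic cell-like cells with at least 3 monocyte/macrophage markers held 98.5% and 97.5% of the *C5ar1* UMIs of their type. For *C3ar1* they held 99.2% and 97.8%. They made up 81.5% and 64.5% of the cells. Within them *C5ar1* was at 561 and 190 CPM and *C3ar1* at 147 and 246 CPM. In the rest *C5ar1* was at 45.7 and 12.9 CPM and *C3ar1* at 6.18 and 15.1 CPM. The part of this mix in the ratios was not tested. Within the clusters present on both days, *C5ar1* was lower at day 3 in the *Fcrls*-led (log2 ratio -0.83, 95% CI -0.98 to -0.67) and the *Ear2*-led cluster (log2 ratio -1.02, 95% CI -1.15 to -0.89). *C3ar1* was higher in the *Fcrls*-led cluster (log2 ratio 0.98, 95% CI 0.74 to 1.24), and in the *Ear2*-led cluster its interval reached 0 (log2 ratio 0.27, 95% CI -0.004 to 0.56). Among day 3 clusters *C3ar1* was highest in the *Gpnmb*-led one (606 CPM), where *C5ar1* was lowest of the monocyte/macrophage-like clusters (199 CPM).

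Neutrophil-like cells had the highest *C5ar1* of all types, 1723 CPM (95% CI 1687 to 1759.8) at day 1 and 973 CPM (95% CI 901 to 1049) at day 3. It had a UMI in 91.8% and 85.4% of these cells (thinned 92.4% of 1266 cells and 70.2% of 47). Their *C3*, 278 and 204 CPM, equalled that of fibroblast/FAP-like cells within counting error at day 1 and was below it at day 3, and their *C4b* and *Cfb* were at or near 0. The 7 fibroblast/FAP markers summed to 24.1 CPM in them at day 1, 1 of 7 at 10 CPM or more, and to 2303 CPM at day 3, 7 of 7 at 10 CPM or more and none at 0 on either day, and their part in the *C3* level was not tested. Free RNA could supply at most 0.655% and 19.7% of that level. The summed C1q of neutrophil-like cells was 44.2 CPM at day 1 and 1558 CPM at day 3. Free RNA could supply at most 27.9%, 33.1% and 24.7% of *C1qa*, *C1qb* and *C1qc* at day 1 and 29.6%, 32.1% and 27.3% at day 3. At day 3, 18 of 240 cells had at least 3 of the 7 monocyte/macrophage markers and held 97.4% of these C1q UMIs, against 20 of 2050 cells and 65.2% at day 1. The summed level of the 7 markers was 256 and 1185 CPM, with 5 and 6 of the 7 at 10 CPM or more and none at 0. In the other cells C1q was at 16.1 and 74.5 CPM, *C5ar1* at 1743 and 1618 CPM (log2 ratio -0.11, 95% CI -0.23 to 0.01) and *C3* at 283 and 303 CPM (log2 ratio 0.11, 95% CI -0.19 to 0.38), intervals that spanned 0. The *C5ar1* ratio of neutrophil-like cells as a whole had been -0.82.

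Fibroblast/FAP-like cells also held UMIs of the myeloid members, most of them in cells with macrophage markers. The days fell into different clusters, one led by *Il1rl1* with 636 of the cells at day 1 and one led by *Sfrp2* with 816 at day 3. In both clusters a list of 5 tenocyte (tendon cell) markers scored second. These tenocyte markers summed to 985 CPM at day 1 and 364 CPM at day 3, 4 of 5 at 10 CPM or more on both days. Their part in the ratios between the days was not tested. Summed C1q was 122 CPM at day 1 and 641 CPM at day 3. At least 3 of the 7 monocyte/macrophage markers were found in 101 cells (15.7%) at day 1 and 245 cells (29.7%) at day 3, which held 97.1% and 97.5% of it. The 7 markers summed to 209 and 572 CPM, 6 of 7 at 10 CPM or more and none at 0 on either day. In the other cells C1q was at 4.64 and 28.4 CPM, *C3ar1* at 0.422 and 2.08 CPM and *C5ar1* at 11.7 and 3.30 CPM. Free RNA could supply at most 49.98%, 62.9% and 48.9% of the *C1qa*, *C1qb* and *C1qc* levels of all these cells at day 1 and 5.35%, 6.03% and 4.01% at day 3. For all cells the values had been 15.1 and 63.5 CPM of *C3ar1* and 70.0 and 34.4 CPM of *C5ar1*.

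In fibroblast/FAP-like cells *C3*, *C4b* and *Cfb* did not follow the macrophage markers. Without the cells that had 3 of the 7 markers, *C3* was at 313 CPM at day 1 and 385 CPM at day 3, a log2 ratio of 0.30 (95% CI 0.24 to 0.36). *C4b* was at 19.7 and 46.7 CPM (log2 ratio 1.24, 95% CI 1.04 to 1.45), and *Cfb* at 73.6 and 117 CPM (log2 ratio 0.67, 95% CI 0.55 to 0.78). All 3 were higher in these cells than in the cells with the markers, where *C3* was at 169.8 and 177 CPM, *C4b* at 10.6 and 20.03 CPM and *Cfb* at 45.3 and 51.6 CPM. Satellite cell/myoblast-like cells at day 3 had 4.27 CPM of *C3*, 0.225 of *C4b* and 0.786 of *Cfb*, far below the fibroblast/FAP-like levels. Their summed C1q was 140.3 CPM, of which 83.6% lay in 22 cells with 3 of the 7 markers.

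**Figure D5:**
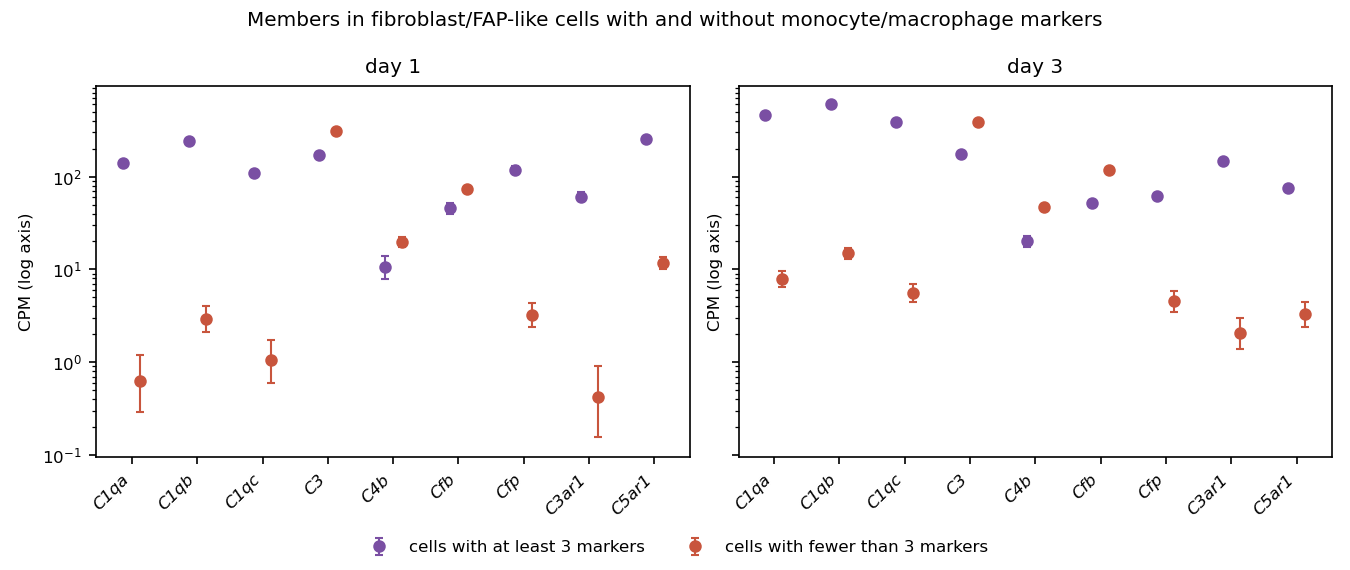
Level of the 9 genes (CPM, log axis, with 95% exact Poisson intervals) in fibroblast/FAP-like cells with at least 3 of 7 monocyte/macrophage markers (purple; 101 cells at day 1, 245 at day 3) and with fewer (red; 542 and 580 cells). The C1q chains, *Cfp* and both receptors were lower in cells with few markers, and *C3*, *C4b* and *Cfb* were higher there.

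Within monocyte/macrophage-like cells, cells without C1q were compared with cells that had all 3 chains, to see which other members went with it. At day 1 *C3* was at 63.4 CPM in the 1299 cells without C1q and 45.4 CPM in the 808 with all chains, and *C4b* at 1.81 and 6.18 CPM. *Cfp* (390.4 and 382), *C3ar1* (217 and 242) and *C5ar1* (853 and 815 CPM) differed by less than 1.2-fold. At day 3, with 233 and 1710 cells, *C3* was at 42.6 and 12.9 CPM, *C5ar1* at 422 and 292 CPM and *Cfp* at 357 and 250.2 CPM. *C3ar1* was at 488 and 548 CPM. *C4b* had the opposite order at day 3, at 6.52 and 2.50 CPM. *Cfb* was at 2.55 and 3.92 CPM at day 1 and at 24.9 and 18.4 CPM at day 3. On both days the 2 *Cfb* levels were within counting error of each other. Cells with all chains had less *C3* than cells without C1q on both days. The split also followed clusters. Cells without C1q made up 60.0%, 46.0% and 42.9% of the *Ccl24*-led, *Cd163*-led and *Fcrls*-led clusters at day 1. At day 3 they made up 14.7% of the *Fcrls*-led and 2.45% of the *Gpnmb*-led cluster, which also differed in *C3* as given above. The cells with all chains were deeper, with medians of 12955 and 17575 UMIs, against 11109 and 10370.0. The parts of cluster and depth were not tested.

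The rest of the complement system was read from a list of 41 other genes, of which 11 reached 50 CPM in a named type. Fibroblast/FAP-like cells had the highest level of *C1ra* (71.5 and 50.9 CPM at day 1 and day 3) and *C1s1* (75.4 and 133), the proteases that bind C1q. They also had the highest level of their inhibitor *Serping1* (413 and 425 CPM) and of the collectin *Colec12* (44.9 and 101). In monocyte/macrophage-like cells *C1ra* was at 1.86 and 1.80 CPM and *C1s1* at 0.360 and 0.591 CPM. The recognition chains of C1 and its proteases were thus highest in different cell types. *Cr1l*, which restrains complement on cell membranes, was at 23.7 to 63.1 CPM in all types. None of the 7 genes of the terminal pathway reached 50 CPM.

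Among the receptors, the CR3 chains *Itgam* and *Itgb2* were highest in classical monocyte-like cells, at 510.1 and 509 CPM at day 1. The CR4 chain *Itgax* was highest in dendritic cell-like cells, at 93.4 CPM at day 3. The C5a receptor *C5ar2* was highest in neutrophil-like cells, 68.0 CPM at day 1 and 47.5 at day 3, as was *C5ar1*. *Cd93*, a surface receptor of myeloid and endothelial cells, was at 214 and 373 CPM in monocyte/macrophage-like cells. Of the 7 genes of the list with 500 UMIs in these cells, 0 were called higher at day 3 and 1 lower, *Itgb2* (log2 ratio -1.11), and their median was -0.60. In fibroblast/FAP-like cells 2 of 11 were called higher, *Colec12* (1.17) and *Cd93* (1.53), and 0 lower, with a median of 0.04. *Cd93* was at 17.7 and 51.0 CPM there, and the part of cells with macrophage markers in its ratio was not tested. The shares over all genes tested are those given above for each cell type.

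Genes whose pattern was most like that of a member were found by the Pearson correlation of log2(CPM + 1) over the 11 groups of day and cell type, among 8398 genes. For *C1qa* they were *C1qc* (0.999), *C1qb* (0.993) and *Ms4a7* (0.982), and for *C1qb* and *C1qc* the other chains came first, followed by *Lat2* (0.984) and *Ms4a7* (0.984). For *C3* they were *Inpp5a* (0.963), *Itpkc* (0.936) and *Igfbp6* (0.93), for *C4b* *Yipf3* (0.947), *Abhd16a* (0.925) and *Smap1* (0.922), and for *Cfb* *Add3* (0.957), *Selenbp1* (0.926) and *Fbxo4* (0.924). For *Cfp* they were *Stx7* (0.989), *Nrros* (0.986) and *Ucp2* (0.986). For *C3ar1* they were *Abcc3* (0.987), *Mfsd1* (0.986) and *Zfp992* (0.985), and for *C5ar1* *Clec4d* (0.986), *Ptafr* (0.985) and *Ccr1* (0.984). Among the members themselves, *C3ar1* followed the C1q chains (0.95 to 0.97) and *C4b* followed *Cfb* (0.88), while *C3ar1* and *C5ar1* had 0.34 and *C1qa* and *C3* had -0.32. *Ms4a7* is also a marker of the monocyte/macrophage list. The groups share the 2 libraries and differ in depth, so these coefficients describe 11 points and carry no test.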

How the data were processed

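The authors pooled cells of 5 mice per library and deposited the UMI counts of each gene in every barcode, neither normalized nor limited to cells. The submitters' processing notes name Cell Ranger 5.0.0 and mm10, while the matrix headers name Cell Ranger 4. Total counts were 74852240 UMIs at day 1 and 102565783 at day 3.

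The number of barcodes taken as cells follows the study. Scrublet (scanpy 1.11.5) marked 2 and 0 cells at its automatic threshold, which was not examined further, and doublets were kept. An alternative left out the 363 and 171 highest scores. Both libraries were normalized together with SCTransform (Seurat 5.3.0, sctransform 0.4.2, R 4.3.3; the study used the glmGamPoi variant), regressing out the cell-cycle difference and mitochondrial share, with 3000 variable features less the markers and complement genes, 10 PCs and a resolution of 0.8, for 15 clusters. Each cluster was named for the marker list that scored best in it, provided that 3 or more markers of the list were raised. It was left unnamed where a second list with as many raised markers scored 0.95 or more. It was also left unnamed where another list had more markers among its leading genes. The same held for a shallow cluster with no marker of its list among those genes. These rules were set after the clusters were seen. Names were given to clusters, not cells, and types under 50 cells on a day were not described. The study named cells with SingleR, so differences from it may come from rebuilt names.

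CPM were computed from summed counts in Python 3.11.15 (numpy 2.4.6, scipy 1.17.1, pandas 2.3.3). Log2 ratios had 0.5 added to each count, and the script was tested on simulated data. Free RNA was bounded from barcodes with at most 100 UMIs, by the lowest ratio of a marker of another type to its level there. Thinning drew 2000 UMIs per cell and left out shallower cells. Promoters were read from RefSeq sequences. The named genes were the 9 members, other complement genes with at least 50 CPM in a named type, the 3 leading genes of monocyte/macrophage-like clusters and the 3 genes most like each member; 1 gene that met this rule is not reported here. The members and lists were chosen with earlier results of these data known. Alternatives changed the call and quality limits of cells, doublets, normalization, PCs, resolution, variable features, joint clustering, naming, summary, depth, ambient RNA and scaling.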

Additional observations from a re-analysis of the deposited data

Results flagged for a closer look

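A pair of differences between cell types stood out, each with every counting interval on opposite sides of 0; the difference between the types was not tested, since each day has 1 library. The log2 ratio of *C3*, day 3 over day 1, was -1.81 in monocyte/macrophage-like cells, against 0.09 for fibroblast/FAP-like cells, a difference of -1.90. Relative to the median gene of each type the ratios were -2.15 and -0.06, so the second one changed sign and the types no longer pointed in opposite directions, while the gap between them remained. The fibroblast/FAP-like ratio was 1.07 with 200 genes per 1000 UMIs required, 0.34 as a mean over cells and 0.30 without cells that had 3 of 7 macrophage markers. The log2 ratio of *Cfp* was -0.52 in monocyte/macrophage-like cells and 0.26 in classical monocyte-like cells, a difference of -0.79, and -0.86 and 0.16 relative to the median gene. Within the *Fcrls*-led cluster, present on both days, the *Cfp* ratio was -0.04 with an interval that spanned 0.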

How the results depend on the processing

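No paired analysis was possible because each day is 1 library from other mice. The number of members called in monocyte/macrophage-like cells was 5 higher and 2 lower, and stayed within 1.5 times of these under all alternatives but a comparison within the *Fcrls*-led cluster, added after seeing the data, which gave 1 and 1. The sign of each member's ratio in these cells held in 16 of 16 alternatives for all members but *C4b*, for which it held in 10 and ran from -0.55 to 0.31. The summed C1q ratio, 1.56, stayed above 0: it was 1.79 with 20 PCs, 2.36 at a resolution of 0.4, 2.06 with log-normalization, 1.82 with each library clustered on its own and 1.46 with members and markers among the variable features. It was 1.46 with 200 genes per 1000 UMIs required, 1.47 with barcodes that reached 10% of the 99th percentile in UMIs, 1.51 without doublets, 1.72 at a mitochondrial limit of 15% and 1.37 with each cell named by its marker score. It was 1.61 in thinned cells, 1.60 as a mean over cells, 1.22 centred on the median gene and, both added after seeing the data, 1.71 with classical monocyte-like cells and 0.46 within the *Fcrls*-led cluster. The *C3* ratio of fibroblast/FAP-like cells, 0.09, reversed to -0.055 when centred, and was 1.07 with 200 genes per 1000 UMIs, 0.31 thinned, 0.019 by marker score, 0.34 as a mean over cells, 0.15 at 15% and, added after seeing the data, 0.30 without cells that had 3 of 7 macrophage markers. Members highest in monocyte/macrophage-like cells were 4 on each day. Over the alternatives they numbered from 0 to 6 at day 1 and from 2 to 4 at day 3. At a resolution of 0.4 they were 0 at day 1, and by marker score 2 at day 3. The cause was not tested. Without the limit of 500 UMIs, the share of genes called in monocyte/macrophage-like cells was 38.0% higher and 10.3% lower, of 18305 genes. Of 36 shares of cells with a UMI, 34 moved beyond their interval when cells were thinned to 1000 or 3000 UMIs in place of 2000, so shares are comparable only at 1 depth. The 2 libraries limit every statement: intervals cover counting error, and mouse, library and chemistry cannot be told apart from the day.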

Other observations

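Barcodes over the mitochondrial limit, 517 at day 1 and 2013 at day 3, were not part of any comparison and held the same members. Their C1q levels were lower than in kept cells, 172, 272 and 102 CPM of *C1qa*, *C1qb* and *C1qc* at day 1 and 547, 785 and 334 CPM at day 3, against 323, 570.2 and 258 CPM and 1143, 1465 and 774 CPM over all kept cells. *C3* was at 153 and 131 CPM in them, and at 143 and 106 CPM in kept cells. *C5ar1* was at 612 and 157 CPM, against 661 and 197 CPM, lower at day 3 in both sets. *C3ar1* was at 59.4 and 167 CPM, against 134 and 301 CPM. The mix of cell types among these barcodes was not determined.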
